A study of Mus musculus with 9 samples.

Results

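Axon guidance and cell adhesion genes were examined in RNA of sorted amygdala cells from BA, AV and AP mice. The members were all genes whose mouse symbol belongs to the semaphorin, plexin, neuropilin, ephrin, Eph receptor, Slit, Robo, netrin, netrin receptor, cadherin, protocadherin, contactin, neurexin or neuroligin families. Of 181 such genes in the annotation, 127 were listed in the deposited values: 99 of the 9872 genes in the table of BA and AV mice, 118 of the 11820 genes in the table of BA and AP mice, and 90 in both. A total of 126 members were protein-coding genes, and Pcdhgb8 is annotated as a polymorphic pseudogene. The pattern also takes in Unc50, a gene that is no netrin receptor and is counted in the totals but in no family.

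Guidance cues are secreted or membrane-bound proteins that attract or repel growing axons through receptors on the growth cone. Semaphorins act through plexins and neuropilins, ephrins through Eph receptors, Slits through Robos, and netrins through Dcc and the Unc5 receptors. Cadherins and protocadherins join cells by calcium-dependent contacts, contactins are immunoglobulin adhesion proteins held to the membrane by a lipid anchor, and neurexins bind neuroligins across the synapse. In the adult brain many of these proteins act in synapses, and several are also made by glial cells.

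All mice carried the Thy1-YFP transgene on B6.Cg-Tg(Thy1-YFP)HJrs/J, a line in which the Thy1 promoter drives the fluorescent protein in a subset of projection neurons of several brain regions. They were grouped by behaviour into balancing (BA), avoiding (AV) and approaching (AP) mice by their spontaneous choices in a maze task with rewarding and aversive stimuli. YFP-positive cells were collected from amygdala punches a month after the task, and the RNA of each mouse made 1 library. The table of BA and AV mice holds 3 BA mice and AV replicates 1 and 3, and the table of BA and AP mice has 3 AP mice beside the same BA mice. AV replicate 2 was an outlier for the authors and was not used here. The mice's ages were not given in the labels.

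The values are a normalized signal, for which the paper names TMM scaling between libraries, with no correction for gene length. They summed to between 3267967 and 3974274 per mouse in the first table and to between 4589304 and 5072766 in the second. The limma test was run within each table, across every gene listed, on values transformed as log2(value + 1), and genes with a Benjamini-Hochberg adjusted p under 0.05 were called. A log2 fold change above 0 stands for a signal above that of BA mice. As both tables share the BA mice, AV and AP mice were not tested against each other.

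The label gives pyramidal neurons as the cell type, and the marker levels went against it. Of 12 pyramidal neuron markers only Camk2a and Nrgn were listed in either table, and Slc17a7, the vesicular glutamate transporter of such neurons, was not. The 11 oligodendrocyte markers were all listed, at a summed signal of 207897 to 254982 in BA mice and 57636 to 89480 in AV mice, and 9 of them were called lower in AV mice. Camk2a, a kinase of excitatory synapses, measured 55.3, 77.3 and 68.4 in BA mice and 1656 and 2965 in AV mice. Of 11 markers of neurons of any kind, 4 were listed. Map2 (819, 917 and 1154 in BA mice, 4703 and 6319 in AV mice) and Elavl4 were called higher. Elavl3 went down without a call (1242, 1629 and 1271 in BA mice, 936 and 850 in AV mice), and Tubb3 had overlapping groups. All 4 listed endothelial markers were lower in AV mice, and Kdr alone was called. Astrocyte markers (9 of 11 listed) summed to between 10740 and 16354 in BA mice and to 31789 and 61835 in AV mice, and 4 were called higher. Of 4 listed microglia markers, Tmem119, C1qa and Cx3cr1 were called higher, and the list summed to between 682 and 865 in BA mice and to 999 and 1327 in AV mice. The other, Sall1, went down without a call, from 573, 445 and 510 in BA mice to 277 and 388 in AV mice (log2 fold change -0.63). Sall1 made up most of the microglia sum in BA mice, so the sum understates the rise of the others. Tmem119, C1qa and Cx3cr1 rose by 2.36, 1.65 and 1.25 on the log2 scale. Of 4 listed fibroblast markers, Col1a1, Col1a2 and Pdgfra, the last also a marker of oligodendrocyte precursors, were called higher, with sums of 273 to 429 in BA mice and 1053 and 1823 in AV mice. Pdgfra made up most of these sums, at 225 to 388 in BA mice and 744 and 1685 in AV mice. The 6 listed precursor markers split, with Pdgfra and Lhfpl3 called higher and Olig1, Olig2 and Sox10 called lower. The part of these cell types in the results on members was not tested, and in such bulk samples fewer cells of a type cannot be told apart from less RNA per cell.

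Between BA and AV mice, the signal of guidance and adhesion genes changed in both directions. Of the 99 members, 42 were called (42.4%), 22 upward and 20 downward, beside 29.7% of all genes tested. The background was 13.6% of genes in the upward direction and 16.2% in the downward one. The members' median log2 fold change was -0.06 and that of all genes was -0.03, while single members ran from -2.58 to 2.35. The mice of both groups did not overlap for 66 members, which is 66.7% beside 58.9% of all genes. The guidance families had 19 of 36 members called, 11 higher and 8 lower. The adhesion families had 23 of 62 called, 11 higher and 12 lower.

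**Figure D1:**
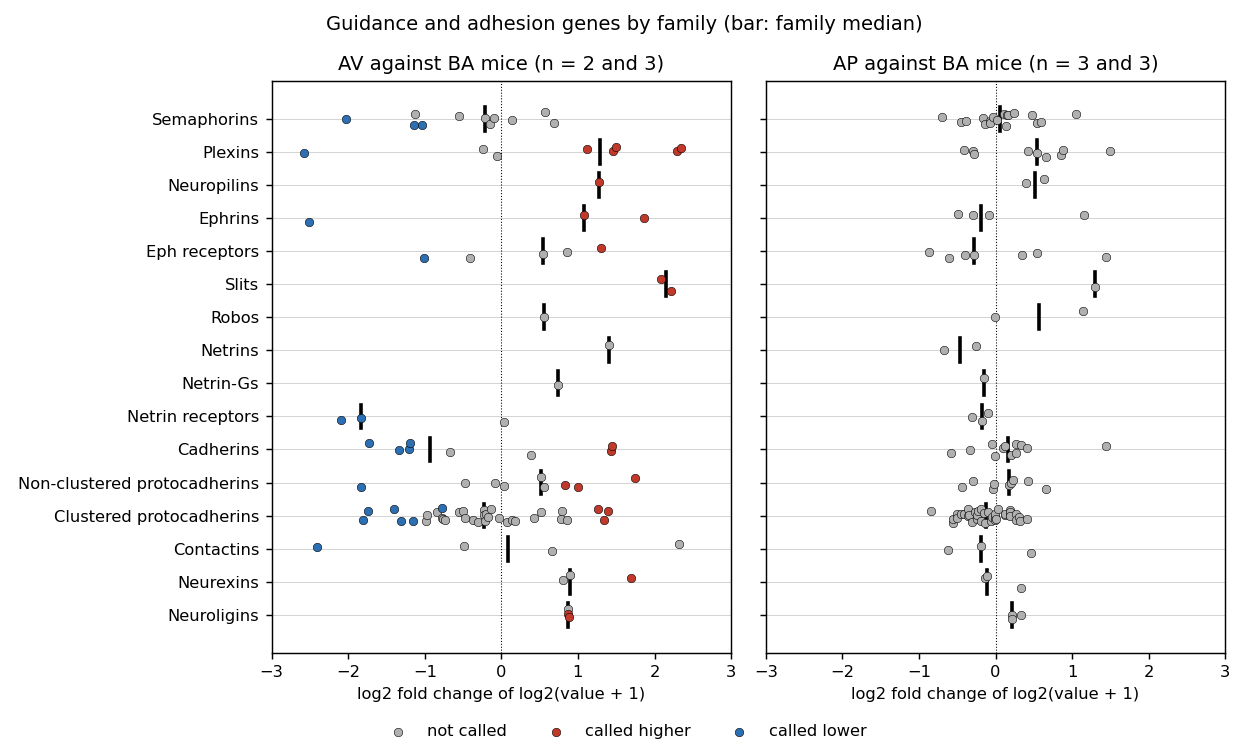
Log2 fold change of each member (x axis) by family (y axis), AV against BA mice on the left and AP against BA mice on the right, on the same scale. Red and blue points were called higher and lower at an adjusted p under 0.05, grey points were not called, and black bars are family medians. Plexins and Slits lie mostly to the right of 0 in AV mice and netrin receptors mostly to the left, while no point of the AP comparison is coloured. Unc50 is not drawn.

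The members called lower were at higher levels in BA mice than those called higher. Per kilobase of exon, the median BA signal of the 20 called lower was 117, and that of the 22 called higher was 7.11. Pcdh9, Efnb3 and Cntn2 led the former, with BA means of 838, 594 and 589 per kilobase. This is a description of lists drawn from the same values, with no test.

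Leaving out 1 mouse at a time changed the count of called members. It was 21, 22 and 26 without BA replicate 1, 2 and 3, and 47 and 52 without AV replicate 1 and 3. The share of all genes called moved as well, to 16.1% and 15.4% without BA replicate 1 and 2, to 18.04% without BA replicate 3 and to 32.1% and 35.4% without each AV mouse. A single AV mouse left in such a fit is assumed to vary like the BA mice. Of the 42 calls, 17 held in all 5 of these fits, 7 higher and 10 lower. They were Plxna4, Plxnd1, Slit3, Efnb2, Plxnb2, Pcdhgc5 and Plxna2, and, lower, Plxnb3, Efnb3, Cntn2, Unc5c, Sema6a, Unc5b, Pcdh9, Pcdhgb4, Cdh16 and Pcdhgb5.

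The promoters of the called members with the largest changes and an entry in the RefSeq promoter table of GRCm38.p6 are shown to let their base composition be compared. Plxna4 and Efnb3 had larger or like changes and have no entry. Each sequence runs 5′ to 3′ on the strand of its gene, from 250 bases before to 50 after the transcription start. Capitals mark matches, on either strand, to 3 of the motifs searched: the GC box GGGCGG (reverse CCGCCC), the SOX core ACAAAG (reverse CTTTGT) and the E-box CAGCTG. The promoter of Plxnd1 is at chr6:115994956-115995255 on the minus strand, and that of Slit3 at chr11:35121206-35121505 on the plus strand. The promoter of Plxnb3 is at chrX:73756853-73757152 on the plus strand, and that of Cntn2 at chr1:132542891-132543190 on the minus strand.
Plxnd1, higher in AV mice: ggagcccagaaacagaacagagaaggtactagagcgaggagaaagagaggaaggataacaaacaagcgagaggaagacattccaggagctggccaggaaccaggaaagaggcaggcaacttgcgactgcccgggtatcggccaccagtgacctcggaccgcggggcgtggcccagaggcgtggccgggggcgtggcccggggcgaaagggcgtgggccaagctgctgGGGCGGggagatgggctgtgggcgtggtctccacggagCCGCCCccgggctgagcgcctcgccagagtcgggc
Slit3, higher in AV mice: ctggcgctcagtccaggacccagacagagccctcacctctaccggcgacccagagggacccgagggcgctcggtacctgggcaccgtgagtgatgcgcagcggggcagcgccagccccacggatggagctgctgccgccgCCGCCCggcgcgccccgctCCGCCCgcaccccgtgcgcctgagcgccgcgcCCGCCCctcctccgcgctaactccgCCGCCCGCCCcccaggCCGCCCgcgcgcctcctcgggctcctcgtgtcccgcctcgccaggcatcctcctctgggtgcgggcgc
Plxnb3, lower in AV mice: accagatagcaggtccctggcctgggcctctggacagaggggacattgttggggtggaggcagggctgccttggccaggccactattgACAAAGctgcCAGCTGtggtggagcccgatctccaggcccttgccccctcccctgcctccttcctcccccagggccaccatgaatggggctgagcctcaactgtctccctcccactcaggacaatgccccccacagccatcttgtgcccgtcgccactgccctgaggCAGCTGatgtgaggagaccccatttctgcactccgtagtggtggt
Cntn2, lower in AV mice: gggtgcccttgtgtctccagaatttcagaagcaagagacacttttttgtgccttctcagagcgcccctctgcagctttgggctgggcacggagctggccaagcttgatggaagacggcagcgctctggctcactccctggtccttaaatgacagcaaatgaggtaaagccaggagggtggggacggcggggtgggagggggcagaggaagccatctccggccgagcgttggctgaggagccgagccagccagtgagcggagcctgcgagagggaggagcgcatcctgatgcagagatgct

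The Slit3 window held 6 GC boxes and 41 CpG dinucleotides, and the Plxnd1 window 2 GC boxes and 23 CpG dinucleotides. The windows of Plxnb3 and Cntn2 held no GC box, with 4 and 13 CpG dinucleotides. Plxnb3 had 1 SOX core and 2 E-boxes. Among all promoters of the called members in the table, 11 of 18 windows of 14 genes called higher held a GC box (61.1%), against 3 of 14 windows of 10 genes called lower (21.4%). The share was 59.4% of 32 windows of members not called and 35.7% of all 32851 promoters. SOX cores were in 22.2% of the windows of genes called higher, 14.3% of those called lower and 18.7% of all promoters. CCAAT (reverse ATTGG) and TATAAA (reverse TTTATA) were searched as well. CCAAT was in 33.3%, 42.9% and 37.4% of these sets, and TATAAA in 11.1%, 0% and 13.6%. The E-box was in 5.56%, 14.3% and 16.3%. A gene can have several windows that overlap, so these shares were not tested, and a match is only a match of letters.

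Among the guidance ligands, both Slits rose in AV mice. Slits are secreted repellents that act on Robo receptors. The signal of Slit3 was 9.95, 13.6 and 12.2 in BA mice and 60.2 and 57.2 in AV mice. Every AV mouse was above every BA mouse, by a log2 fold change of 2.22 ± 0.23 (SE), adjusted p = 0.00314. Slit1 measured 16.9, 7.32 and 11.1 in BA mice and 34.3 and 74.3 in AV mice, and here too the groups did not overlap (log2 fold change 2.08 ± 0.43 (SE), adjusted p = 0.0139). The call of Slit1 was lost without BA replicate 2 or 3. Of the receptors, Robo1 measured 279, 232 and 271 in BA mice and 350.3 and 418 in AV mice and was not called (log2 fold change 0.56, adjusted p = 0.104). Slit2 and Robo2 were not listed.

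**Figure D2:**
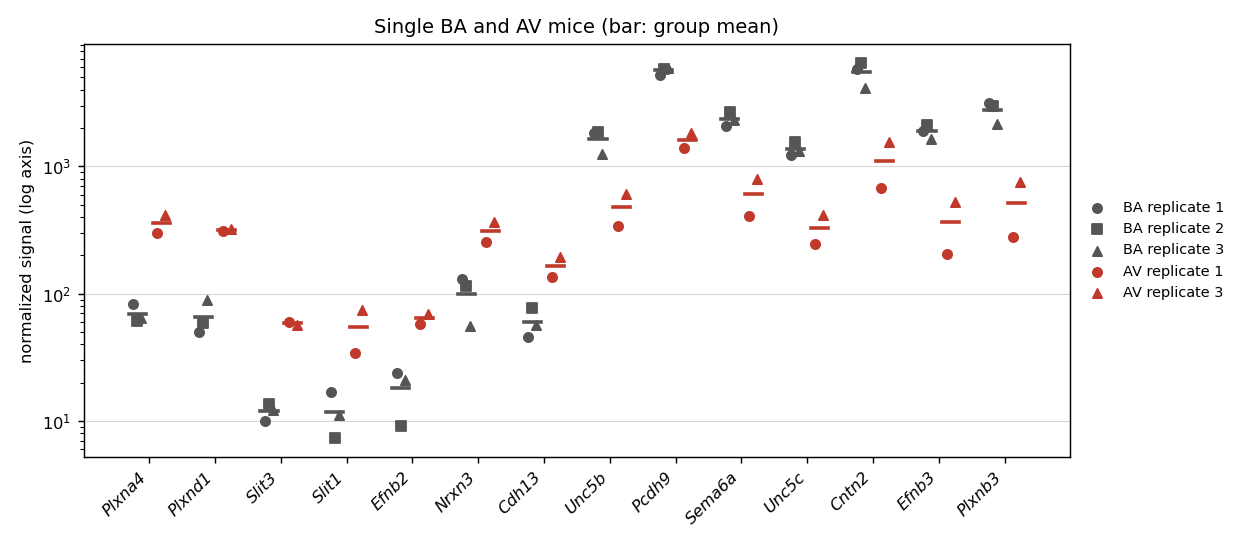
Normalized signal (log axis) of 14 called members in single mice, ordered from the largest positive to the most negative change. Grey symbols are BA mice, red symbols AV mice, the shape gives the replicate number and bars are group means. For each of these genes the AV mice lie entirely above or entirely below the BA mice.

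Plexins, the receptors of semaphorins, were the family with the most members called higher. Of 8 listed, 5 rose and 1 fell, beside 13.6% and 16.2% of all genes. Plxna4 measured 83.0, 60.6 and 64.3 in BA mice and 301 and 415 in AV mice, the largest increase among the members (log2 fold change 2.35 ± 0.26 (SE), adjusted p = 0.00328). Plxnd1 measured 49.8, 59.2 and 88.6 in BA mice and 310.4 and 325 in AV mice, without overlap (log2 fold change 2.29 ± 0.29 (SE), adjusted p = 0.00395). Plxna1 measured 164, 114 and 151 in BA mice and 315 and 509 in AV mice, and Plxnb2 and Plxna2 rose by 1.46 and 1.12 on the log2 scale. The call of Plxna1 was lost without BA replicate 2.

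Plxnb3, a B plexin known from oligodendrocyte lineage cells, went the other way and had the lowest log2 fold change of all members. It measured 3134, 3004 and 2151 in BA mice and 278 and 749 in AV mice (log2 fold change -2.58 ± 0.43 (SE), adjusted p = 0.00712). Both AV mice were far below the BA mice, and AV replicate 1 was the lower of them. Plxnb1 measured 1164, 782 and 839 in BA mice and 669.7 and 1145 in AV mice, with overlapping groups, and Plxna3 was not called either (log2 fold change -0.24). Plexins thus included the members with the highest and the lowest change. Plxna4 lies at chr6:32144268-32588192, Plxnd1 at chr6:115954811-115995005 and Plxnb3 at chrX:73757090-73772514 (GRCm38).

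Of 11 listed semaphorins, the ligands of the plexins, 3 were called lower (27.3%, beside 16.2% of all genes). None was called higher, beside 13.6% of all genes. Over both directions, 29.7% of all genes were called. Sema6a, Sema4d and Sema6d fell. Sema6a, a membrane-bound semaphorin, measured 2090.1, 2654 and 2318 in BA mice and 409 and 796 in AV mice (log2 fold change -2.03 ± 0.32 (SE), adjusted p = 0.00616). Sema4d measured 1522, 2022 and 1349 in BA mice and 713 and 747 in AV mice, and Sema6d, the semaphorin with the highest signal per kilobase in BA mice (269), measured 2764, 2618 and 3131 in BA mice and 1312 and 1459.7 in AV mice. The groups did not overlap for any of these genes, and the log2 fold changes were -1.14 and -1.03. Both of the latter calls were lost without BA replicate 1, that of Sema4d also without BA replicate 2 and that of Sema6d without BA replicate 3.

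The other 8 semaphorins were not called and ran from -1.12 (Sema3c) to 0.68 (Sema4b). Sema3a, the classic secreted repellent, was not listed in the AV comparison. Nrp2, a co-receptor of secreted semaphorins and the sole neuropilin listed with AV mice, measured 55.4, 85.8 and 97.0 in BA mice and 208 and 169.8 in AV mice. It rose by 1.27 on the log2 scale (adjusted p = 0.0211), and this call was lost without BA replicate 1 or 2.

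Ephrins of the B class are transmembrane ligands of EphB receptors, and the 3 listed were all called, in opposite directions. Of all genes, 29.7% were called. Efnb3, at chr11:69554092-69560205, measured 1895, 2122 and 1656 in BA mice and 205 and 529.8 in AV mice (log2 fold change -2.51 ± 0.40 (SE), adjusted p = 0.00634). Efnb2 measured 23.9, 9.16 and 21.0 in BA mice and 58.1 and 69.9 in AV mice (log2 fold change 1.87 ± 0.41 (SE), adjusted p = 0.0163), and Efnb1 rose by 1.08. So Efnb3, the ephrin with the highest BA signal per kilobase (594), fell, while the others, at 2.63 and 4.89, rose. The call of Efnb1 was lost without BA replicate 1 or 3.

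Of the 5 Eph receptors listed, Epha5 rose and Ephb1 fell (40% called, beside 29.7% of all genes). Epha5 measured 119.7, 91.6 and 166 in BA mice and 315 and 293 in AV mice (log2 fold change 1.31, adjusted p = 0.0181). Ephb1 measured 854, 928 and 769.6 in BA mice and 439 and 404 in AV mice (log2 fold change -1.01, adjusted p = 0.0154). Both calls were lost without BA replicate 1 or 2. Epha2, Ephb6 and Epha4 were not called, at 0.86, 0.55 and -0.41, although their groups did not overlap.

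The netrin receptors Unc5b and Unc5c, which mediate repulsion by netrins, fell together, while Dcc, which mediates attraction, was not called. Unc5c measured 1228, 1564 and 1323 in BA mice and 245 and 416 in AV mice (log2 fold change -2.09 ± 0.29 (SE), adjusted p = 0.00454). Unc5b measured 1834, 1875 and 1248 in BA mice and 342 and 610.4 in AV mice (log2 fold change -1.83 ± 0.33 (SE), adjusted p = 0.00898). The AV mice were below all BA mice for both genes. Dcc measured 199, 184 and 215 in BA mice and 199 and 209 in AV mice. The groups overlapped, and the log2 fold change of 0.04 ± 0.21 (SE) became -0.043 when each mouse was centred on its median. Of the ligands, Ntn4 measured 6.02, 3.81 and 17.4 in BA mice and 29.0 and 16.0 in AV mice, with overlapping groups (adjusted p = 0.106), and Ntng2, a netrin-G held to the membrane, was not called (0.74, adjusted p = 0.0832). Over all guidance families, 11 of 18 receptors were called (61.1%), 7 higher and 4 lower, and 8 of 18 ligands (44.4%), 4 in each direction. Of all genes, 29.7% were called, 13.6% higher and 16.2% lower.

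Classical and related cadherins were called in 6 of 8 cases, 2 higher and 4 lower, beside 29.7% of all genes. Cdh13, a cadherin held by a lipid anchor, measured 46.0, 77.8 and 56.3 in BA mice and 134 and 195 in AV mice (log2 fold change 1.45 ± 0.31 (SE), adjusted p = 0.0144), and Cdh18 rose by 1.44. Cdh20 measured 486, 580.0 and 468 in BA mice and 98.4 and 238 in AV mice (log2 fold change -1.73 ± 0.38 (SE), adjusted p = 0.0171). The groups did not overlap in either case, and AV replicate 1 was the lower AV mouse for Cdh20.

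Cdh10, Cdh19 and Cdh16 fell by 1.21, 1.19 and 1.34 on the log2 scale. Cdh16 was low throughout, with BA values of 11.1, 12.2 and 10.5 and AV values of 2.93 and 4.96, of which both AV values lie under 5.69, the highest level of 3 reads in the other table. Cdh2, the N-cadherin of synapses and neural tissue, measured 459, 628 and 593 in BA mice and 697 and 751 in AV mice and was not called (adjusted p = 0.26). Of the 6 calls, that of Cdh16 alone held without each mouse in turn.

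Among the 9 non-clustered protocadherins, Pcdh8, Pcdh1 and Pcdh19 rose and Pcdh9 fell (44.4% called, beside 29.7% of all genes). Pcdh9 had the highest signal per kilobase of all members in BA mice. It measured 5272, 5814 and 5961 in BA mice and 1384 and 1847 in AV mice (log2 fold change -1.83 ± 0.23 (SE), adjusted p = 0.00395), so that the lowest BA mouse was above the highest AV mouse by a wide margin. Pcdh8, an activity-regulated protocadherin, measured 17.9, 13.6 and 12.2 in BA mice and 30.8 and 82.7 in AV mice (log2 fold change 1.75, adjusted p = 0.0228). Pcdh1 and Pcdh19 rose by 1.01 and 0.83. The calls of these 3 genes were lost without BA replicate 1 or 2, among others. Pcdh10, Pcdh17, Pcdh7, Pcdh11x and Pcdh18 had overlapping groups.

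The clustered protocadherins lie in 3 adjacent gene clusters, alpha, beta and gamma, in which a variable first exon is joined, in alpha and gamma, to exons shared by the whole cluster. Reads of those shared exons match several genes, over 2860 bases in the alpha cluster and at least 2116 in the gamma cluster, so how the signal is split among these genes is uncertain. Of 35 listed, 9 were called, 3 higher and 6 lower (25.7% beside 29.7% of all genes), and the median log2 fold change was -0.23.

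The 3 genes called higher were all C-type isoforms, the divergent last variable exons of the clusters. Pcdhgc5 measured 126, 74.9 and 118 in BA mice and 264 and 264 in AV mice (log2 fold change 1.34 ± 0.29 (SE), adjusted p = 0.0152). Pcdhgc3 and Pcdhac2 rose by 1.27 and 1.39. The remaining C-type gene, Pcdhgc4, measured 75.6, 45.5 and 77.5 in BA mice and 29.4 and 47.3 in AV mice and was not called (log2 fold change -0.77, adjusted p = 0.126). The C-type genes were set apart after their values were seen, and Pcdhgc5 alone kept its call without each mouse in turn.

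Of 15 other gamma genes, 4 were called lower and none higher, beside 16.2% and 13.6% of all genes. They were Pcdhgb4 (-1.41), Pcdhga5 (-1.31), Pcdhgb5 (-1.15) and Pcdhga8 (-0.77). Pcdhgb4 measured 139, 105 and 129 in BA mice and 41.2 and 51.6 in AV mice. The median log2 fold change was -0.56 for the 9 A genes and -0.86 for the 6 B genes of the gamma cluster. Of 12 beta genes, Pcdhb6 and Pcdhb13 were called lower (16.7%, near the 16.2% of all genes). They fell by 1.81 and 1.74, both from low signals: Pcdhb13 measured 7.01, 11.0 and 16.4 in BA mice and 1.71 and 3.64 in AV mice. The calls of Pcdhb6, Pcdhga5 and Pcdhga8 were lost without each of the BA mice in turn and without AV replicate 1, that of Pcdhga8 also without AV replicate 3, and that of Pcdhb13 without BA replicate 2 or 3.

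**Figure D3:**
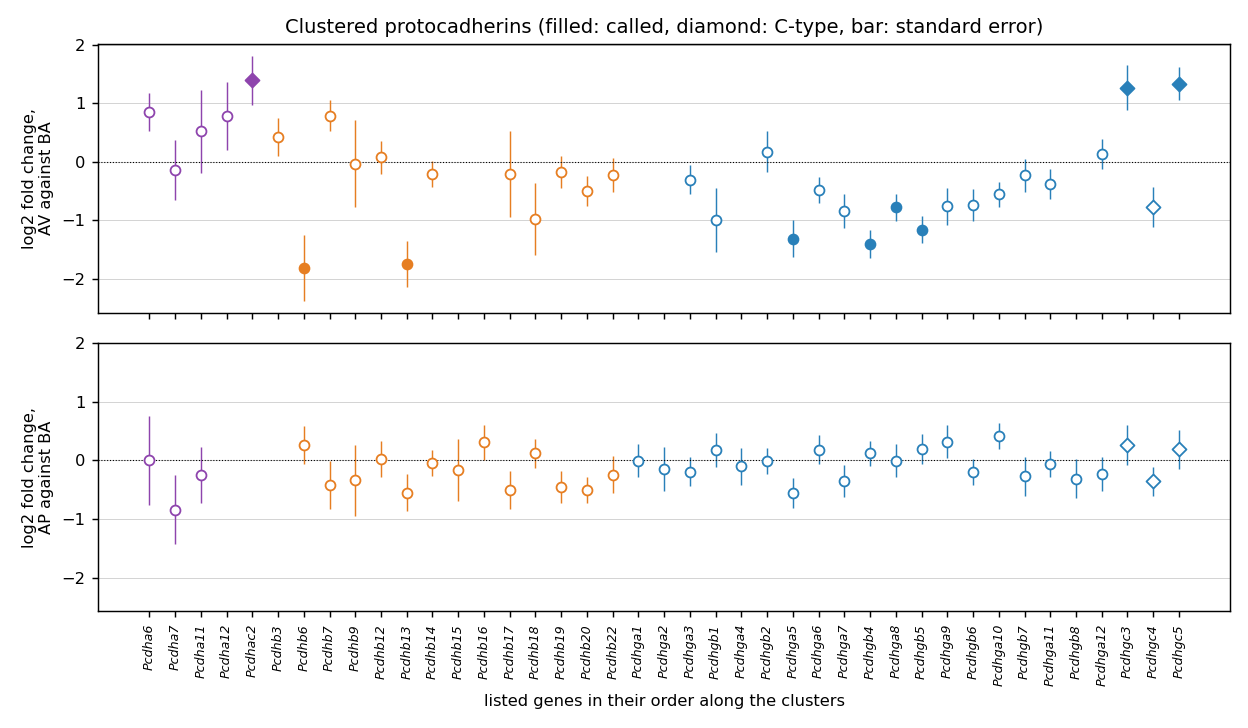
Log2 fold change with its standard error for each listed clustered protocadherin, in the order of the genes along the clusters, for AV against BA mice (top) and AP against BA mice (bottom) on the same scale. Purple, orange and blue are the alpha, beta and gamma clusters, diamonds are C-type genes and filled symbols were called. The 3 filled diamonds of the upper panel lie above 1 and the filled circles below 0, and no symbol of the lower panel is filled.

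Among the adhesion families, the most negative change was that of a contactin. Cntn2, a contactin of axons and of myelinated fibre contacts, at chr1:132509427-132543256, measured 5798, 6523 and 4131 in BA mice and 671 and 1542 in AV mice (log2 fold change -2.40 ± 0.40 (SE), adjusted p = 0.00677). Per kilobase its mean was 589 in BA mice and 119 in AV mice. Cntn4 had a like change in the other direction and was not called. BA replicate 1 lay far below the other BA mice, which measured 38.1 and 41.9 (AV mice 145 and 69.1, log2 fold change 2.32 ± 0.93 (SE), adjusted p = 0.102). Cntn1 and Cntn3 were not called (0.66 and -0.49).

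Among neurexins and neuroligins, partners across the synapse, Nrxn3, Nlgn1 and Nlgn2 rose in AV mice. Nrxn3 measured 131, 114 and 55.8 in BA mice and 256 and 369 in AV mice (log2 fold change 1.70 ± 0.40 (SE), adjusted p = 0.0215), and its call was lost without BA replicate 2. Nlgn2, the neuroligin of inhibitory synapses, measured 227, 246 and 179 in BA mice and 333 and 475 in AV mice (log2 fold change 0.88, adjusted p = 0.0467). Nlgn1, of excitatory synapses, rose by 0.87 (adjusted p = 0.0492). The calls of Nlgn1 and Nlgn2 were lost without each of the BA mice in turn and without AV replicate 3. Nlgn3, which shares 3823 exon bases with another gene model and is uncertain for that reason, and Nrxn2 missed the threshold, at log2 fold changes of 0.88 and 0.80, although both AV mice were above every BA mouse for each.

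**Figure D4:**
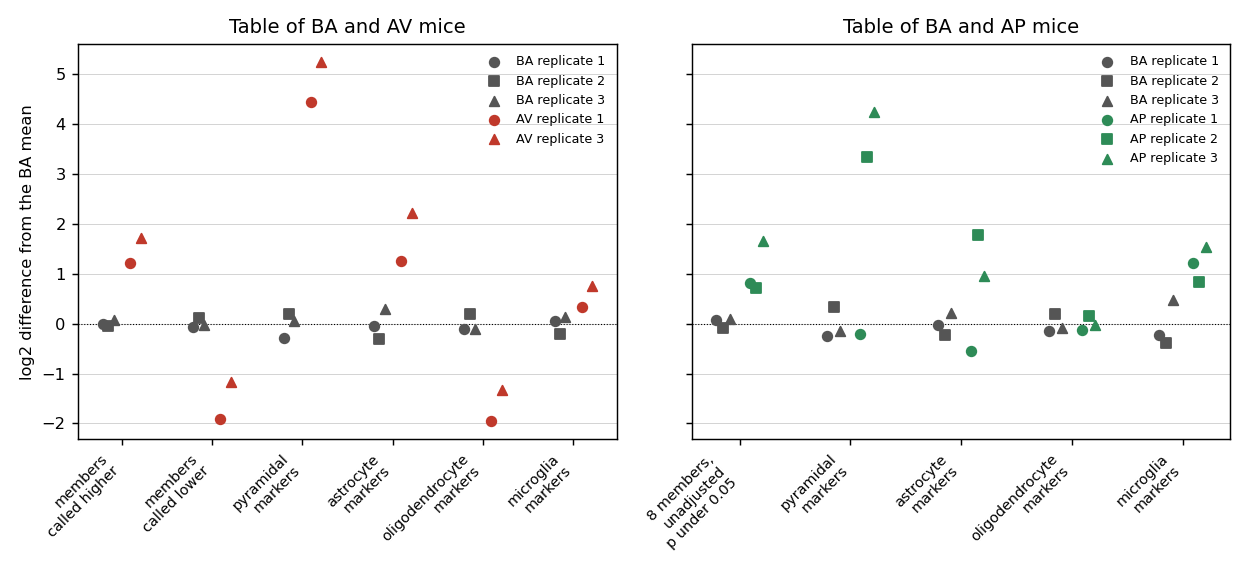
Log2 difference of each mouse from the BA mean, as the median over members and as the summed signal of marker lists, in the table of BA and AV mice (left) and of BA and AP mice (right). The 22 members called higher and 20 called lower were chosen in the left table, so their split there is by choice, as is that of the 8 members with the smallest p on the right. AV mice lie above 4 for pyramidal and below -1 for oligodendrocyte markers, and of the AP mice replicates 2 and 3 lie above 3 for pyramidal markers while replicate 1 lies with the BA mice.

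AV replicate 1 lay below AV replicate 3 for both sets of called members and for each of the marker lists drawn. The direction of the called members was fixed by how they were chosen. For the members called lower, the median log2 difference from the BA mean was -1.90 in AV replicate 1 and -1.18 in AV replicate 3. For the members called higher it was 1.21 and 1.71. The log2 difference of the summed oligodendrocyte markers was -1.96 and -1.32. The astrocyte (1.25 and 2.21), pyramidal (4.45 and 5.25) and microglia markers (0.34 and 0.75) all had this order too. In BA mice the microglia sum was mostly Sall1, the listed marker that fell, and the astrocyte sum was mostly Slc1a2. With 2 AV mice these orders are a description only, and the part of any of these cell types in the changes of the members was not tested.

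Genes that work with the members were counted as well, beside the 29.7% of all genes called (13.6% higher and 16.2% lower). Of 42 listed intracellular guidance effectors, 11 rose and 5 fell. Tiam1 (2.40) and Kalrn (2.38), exchange factors for Rac, and Chn1 (2.31), an inactivator of Rac downstream of Eph receptors, rose, as did Dpysl3 (2.61), a relative of the semaphorin mediator Crmp. Srgap1, which acts downstream of Robo, fell by 1.56. Of 23 synaptic adhesion genes and scaffolds, 9 rose, among them the postsynaptic scaffold Dlg4 (2.73), and Ptprd, a presynaptic receptor phosphatase, fell by 1.89.

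Of 11 contactin-associated and immunoglobulin adhesion genes, 5 rose and Nfasc, a neurofascin gene of nodes and paranodes, fell by 1.96. Cntnap1, the paranodal partner of contactin, rose by 2.24. Of 7 further cadherin superfamily genes, 3 rose (Clstn3 at 2.65) and none fell. Among 10 catenins and linkers, Ctnnb1, the beta-catenin gene, and Ctnnd2 (1.58) rose and Ctnna3 (-1.58) fell. Of 8 further guidance genes, 1 rose and 2 fell.

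Between BA and AP mice, none of the 118 members was called by limma, beside 0.00846% of all genes tested, which is 1 gene. At an unadjusted p under 0.05 there were 8 members (6.78%), all with a higher signal in AP mice, beside 7.77% of all genes. The higher ones made up 4.99% of all genes. The groups did not overlap for 16 members (13.6%, beside 12.1% of all genes), 13 higher and 3 lower. Over all 11820 genes, 667 without overlap were higher and 762 lower. The median log2 fold change was -0.01 over the members and -0.03 over all genes. Of 105 listed genes of the partner lists above, none was called by limma and 4 had an unadjusted p under 0.05.

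The 8 members were Plxna4, Plxnd1 and Plxnb2, Efnb2 and Epha2, Robo4, Sema4f and Cdh23. Epha2, an Eph receptor of A ephrins, had the smallest p of them and measured 30.8, 22.5 and 27.7 in BA mice and 79.3, 42.4 and 122 in AP mice (log2 fold change 1.44 ± 0.37 (SE), adjusted p = 0.392). Plxnb2 measured 209, 216 and 226 in BA mice and 293, 380.3 and 361 in AP mice (log2 fold change 0.66 ± 0.21 (SE), adjusted p = 0.486). Cdh23, a large cadherin known from the hair cells of the ear, was low, at 19.1, 5.07 and 9.36 in BA mice and 27.0, 23.3 and 36.6 in AP mice (log2 fold change 1.45 ± 0.42 (SE), adjusted p = 0.422). Robo4, a Robo of blood vessels, was also low, at 4.13, 14.3 and 10.6 in BA mice and 21.3, 24.7 and 16.1 in AP mice, with 1.14 on the log2 scale.

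AP replicate 3 set much of the size of several differences. Plxna4 measured 99.0, 73.7 and 75.6 in BA mice and 137, 166 and 550.3 in AP mice. The log2 fold change was 1.49 and 0.87 without that mouse. Efnb2 measured 25.4, 13.3 and 22.8 in BA mice and 37.2, 26.1 and 93.9 in AP mice, and its log2 fold change of 1.15 was 0.63 without it. Slit3 measured 11.6, 18.4 and 16.7 in BA mice and 16.8, 27.5 and 127 in AP mice and Sema3a 6.26, 10.2 and 6.90 in BA mice and 5.41, 14.8 and 56.1 in AP mice: in each, AP replicate 3 stood far above the rest. Without AP replicate 3 the unadjusted count was 5, and without AP replicate 1 it was 23, 16 higher and 7 lower. The share of all genes was 5.12% and 15.3% in these fits, against 7.77% with every mouse.

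**Figure D5:**
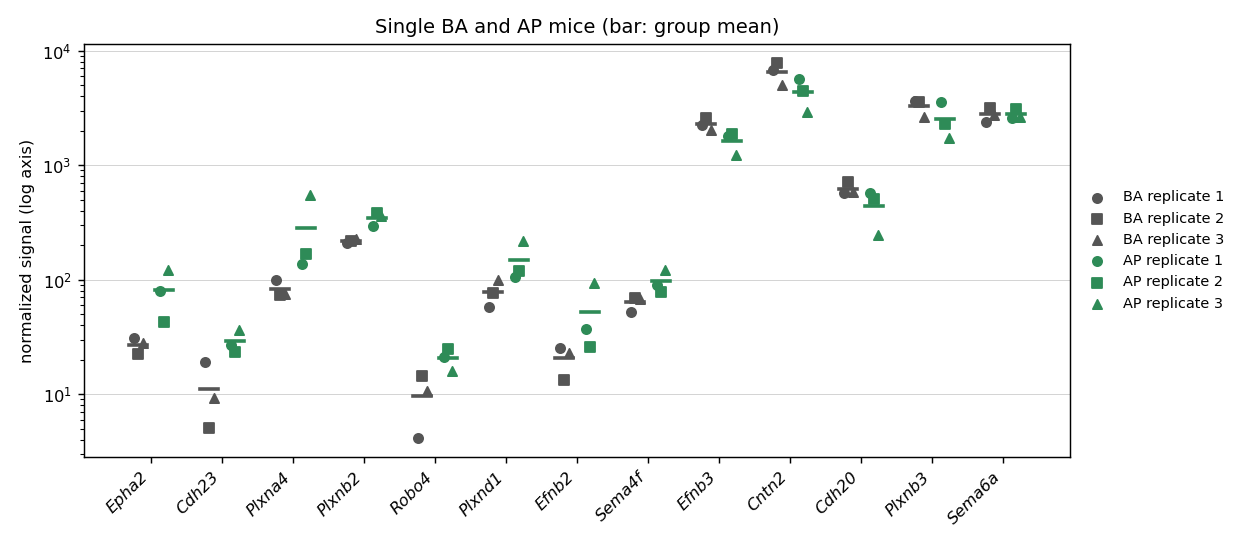
Normalized signal (log axis) in single BA (grey) and AP mice (green), with the shape as the replicate number and bars as group means. The first 8 genes are the members with an unadjusted p under 0.05, in order of p, and the last 5 were called lower in AV mice. AP replicate 3 is the highest AP mouse for most of the first 8 genes, and among the last 5 only Efnb3 has every AP mouse below the BA mice.

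The members most changed in AV mice had these values in AP mice. Plxnb3 measured 3607, 3582 and 2621 in BA mice and 3556, 2306 and 1743 in AP mice (log2 fold change -0.41 ± 0.30 (SE)). Efnb3 measured 2223, 2565 and 2016 in BA mice and 1799.6, 1879 and 1238 in AP mice, with every AP mouse below the BA mice and a log2 fold change of -0.49 ± 0.25 (SE) that was not called (adjusted p = 0.694). Cntn2 measured 6707, 7835 and 5023 in BA mice and 5665, 4419 and 2900.1 in AP mice, with AP replicate 1 among the BA mice (log2 fold change -0.62). Sema6a had overlapping groups, at 2385, 3187 and 2760.3 in BA mice and 2606, 3109.7 and 2657 in AP mice. Unc5c, Unc5b and Pcdh9 also overlapped, at -0.17, -0.31 and -0.30 on the log2 scale.

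Marker levels in this table differed by mouse. Camk2a measured 64.9, 98.3 and 69.4 in BA mice and 77.0, 843 and 1401 in AP mice, so that AP replicate 1 was at the level of the BA mice. The astrocyte sum (all 11 markers listed) was 13737 to 18793 in BA mice and 10998, 55381 and 31404 in AP replicates 1, 2 and 3. The oligodendrocyte sum was 244487 to 309730 in BA and 246984 to 300168 in AP mice. The microglia sum (12 of 13 markers listed) was 2065 to 3714 in BA mice and 4788 to 7813 in AP mice, and 11 of these markers had an unadjusted p under 0.05. The part of these cells in the members' values was not tested.

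By family, plexins had the highest median among the families with 5 or more members, at 0.55 over 9 members (median log2 difference from the BA mean of 0.14, 0.58 and 0.92 in AP replicates 1, 2 and 3), and Eph receptors the lowest, at -0.28 over 7. The clustered protocadherins had a median of -0.12 over 38 members, from -0.84 to 0.42, none with an unadjusted p under 0.05. Nrxn3 and Nlgn2 were at -0.14 and 0.34. Ntn1, the netrin of the commissures, was listed in this table alone and measured 60.6, 62.5 and 11.8 in BA mice and 27.0, 23.3 and 17.1 in AP mice, with overlapping groups. Its receptor Dcc also had overlapping groups (-0.10).

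Of the members, 28 were listed in the table of BA and AP mice alone. Most of the secreted class 3 semaphorins were among them. Sema3d measured 163, 409 and 296 in BA mice and 285, 332 and 293 in AP mice, Sema3e 61.7, 37.9 and 51.0 in BA mice and 58.8, 79.9 and 23.6 in AP mice and Sema3b, a low gene, 3.07, 12.2 and 9.36 in BA mice and 9.96, 7.67 and 6.33 in AP mice. All of these groups overlapped. Sema5a, a transmembrane semaphorin, measured 811, 1771 and 809.9 in BA mice and 1465, 1266 and 865 in AP mice. BA replicate 2 was above every AP mouse for it.

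The neuropilin Nrp1, receptor of Sema3a, measured 64.9, 96.3 and 154 in BA mice and 91.8, 144 and 167 in AP mice (log2 fold change 0.40 ± 0.36 (SE)), and Nrp2 69.1, 101 and 109 in BA mice and 217, 82.8 and 159 in AP mice (0.63 ± 0.37 (SE)). Plxnc1, the receptor of Sema7a, measured 77.7, 38.9 and 29.0 in BA mice and 56.6, 97.6 and 96.1 in AP mice (log2 fold change 0.85 ± 0.39 (SE)). BA replicate 1 was above AP replicate 1 for Plxnc1, so the groups overlapped. Sema4c had the most negative log2 fold change of the semaphorins (-0.71 ± 0.41 (SE)), and Ephb6 that of all members (-0.87 ± 0.49 (SE)). Ephb6, an Eph receptor without kinase activity, measured 56.3, 51.2 and 49.8 in BA mice and 31.6, 59.4 and 11.7 in AP mice, and AP replicate 3 was far below the rest. Cdh5, the cadherin of endothelial junctions, measured 19.1, 26.6 and 54.7 in BA mice and 24.7, 38.8 and 35.5 in AP mice, with overlapping groups. Pcdh15, a protocadherin of hair cells, measured 624, 452 and 383 in BA mice and 567, 305 and 252 in AP mice (log2 fold change -0.44). None of these differences was called.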

How the data were processed

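RNA of sorted amygdala cells was measured by stranded paired-end sequencing of ultra-low-input libraries, 1 mouse each. The authors deposited a normalized signal per gene and mouse, in 2 tables processed apart. The paper names TMM, a filter on low counts and a batch correction with ARSyN, and whether ARSyN was applied to both tables was not stated. The values of the same BA mice differ between the tables by more than 1 factor per mouse. Vwf measured 62.6 and 56.5 in BA replicates 1 and 2 beside AV mice, and 53.5 and 84.5 beside AP mice. The source of this difference, and its effect on the calls, was not tested. The submitters' processing notes name bcl2fastq 2.20, Salmon 1.2 and GRCm38.p6. All columns belong to mice, and none holds a comparison made by the authors.

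In the table of BA and AP mice, the low values mostly fall on steps of 1 read (79.3% to 89.9% per mouse, to within 0.02 of a step). Read from the steps, 3 reads correspond to at most 5.69, and 3809391 to 6714094 reads stand behind a mouse. No step was read from the table of BA and AV mice, so the level of 3 reads is unknown there. The mark of 5.69 comes from the other table and may not hold in this one. The 8 members with a mouse at or under it here are taken as imprecise.

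Gene identifiers were matched to GENCODE M21 (GRCm38) for symbols, coordinates and exon length, and 9871 of 9872 and 11778 of 11820 had a symbol. The symbol Pcdha11 is carried by 2 identifiers, 1 in each table. The study's NOISeqBIO was not run. limma 3.58.1 in R 4.3.3 was fitted to log2(value + 1) without covariates or filter, so fold changes of low genes are understated, and p-values were adjusted over all listed genes. The script was tested on simulated data. Promoters came from RefSeq (66 of the members had an entry). Members and lists were chosen with earlier results of these data known.

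Members were named for the largest changes (mean of at least 20 in a group), the highest mean and extremes of each family, and known ligand and receptor pairs. Other called members, those with an unadjusted p under 0.05 in AP mice, the C-type group and genes of the partner lists were chosen once their values had been seen. One listed member is counted in the totals but not reported singly here. Alternatives were an adjusted p under 0.01, pseudocounts of 0.5 and 5, a mean of at least 20, centring of each mouse, a variance prior following mean expression, subtraction of the lowest listed value, the replicate number as a block, and each mouse left out. Tables and figures were made in Python 3.11.15 with pandas 2.3.3, numpy 2.4.6 and matplotlib 3.10.9.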

Additional observations from a re-analysis of the deposited data

How the results depend on the processing

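Between BA and AV mice, 42 members were called, 12 at an adjusted p under 0.01 (4 of 22 higher and 8 of 20 lower), and 37 to 46 under centring, the filter, other pseudocounts and the variance prior. Leaving out 1 mouse gave 21 to 52 calls, 10 to 27 higher and 11 to 27 lower. Between BA and AP mice, 0 members were called under every alternative. At an unadjusted p under 0.05, 8 became 5 to 23 with 1 mouse left out and 8 to 11 under the other settings without a block. With 1 mouse left out there were 5 to 16 higher and 0 to 7 lower. There was 1 lower with centring, the filter, a pseudocount of 0.5 or the lowest value subtracted, and there were 2 with the variance prior.

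With the replicate number as a block, 13 members were called in AV mice, all among the 42 (5 higher and 8 lower), and 13 in AP mice had an unadjusted p under 0.05 (10 higher and 3 lower). Of all genes, 9.83% were called in AV mice and 8.97% had an unadjusted p under 0.05 in AP mice. The numbers do not establish a pairing: deviations of same-numbered mice correlated at -0.06 and -0.04 for AV and at 0.02, 0.12 and 0.08 for AP mice. Each AP mouse, but no AV mouse, correlated best with its own number.

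Among named members, log2 fold changes turned sign only where the main value was smaller in size than its standard error. The largest of these was 0.26 ± 0.35 (SE), for Pcdhgc3 in AP mice. With 1 mouse left out, in AV mice Dcc ran from -0.020 to 0.089 and Plxna3 from -0.51 to 0.035. In AP mice Dcc ran from -0.39 to 0.099, Efnb1 from -0.26 to 0.084, Nrxn2 from -0.36 to 0.081, Nrxn3 from -0.56 to 0.11, Pcdhgc3 from -0.13 to 0.48, Robo1 from -0.070 to 0.035 and Unc5c from -0.35 to 0.055. Dcc in AV mice was also -0.043 with centring and -0.020 with the replicate block. The cause was not tested. The step size limits the AP table, where 3 reads lie at 4.13 to 5.69 depending on the mouse.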
